A study of Mus musculus with 4 samples.

Results

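The genes described here are 40 genes of DNA replication and mitosis, named as a list and looked up by symbol among the deposited probe sets that carry exactly 1 gene symbol. Of these, 39 were measured, out of 19938 genes on the array, and Ccnb1, which encodes cyclin B1, had no such probe set and was not analysed here. They were divided by textbook role into 17 S-phase genes and 22 measured mitotic genes. Where a gene had several probe sets, the brightest was used (Pcna and Top2a). The cells were labelled haematopoietic stem cells, sorted from the bone marrow of C57BL/6 (B6) mice of 8 weeks by the gate Lin-c-Kit+Sca-1+ (no lineage markers, c-Kit and Sca-1 present), in which multipotent progenitors are found as well. There were 2 arrays from WT mice and 2 from mice of genotype Hif1a-/-, in which the gene of an oxygen-regulated transcription factor subunit is deleted. The arrays of each genotype are numbered 1 and 2 as biological replicates. The labels give no deleter strain or deleted exon and do not say whether mice were pooled.

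Replication begins when the MCM helicase is loaded on origins and activated, and it needs a supply of deoxynucleotides and a sliding clamp for the polymerases. Mitosis is driven by cyclin-dependent kinase CDK1 with its A- and B-type cyclins, by Polo and Aurora kinases and by motors of the spindle, and it ends when the anaphase-promoting complex marks cyclins for destruction. Transcripts of S-phase genes are induced by E2F factors as a cell leaves quiescence, and those of mitotic genes follow later through B-MYB and FOXM1, which act at CHR elements of their promoters. Long-term stem cells are mostly quiescent, whereas the progenitors of the same gate divide often, so in this population the transcripts are known to track the share of dividing cells. In bulk RNA, fewer dividing cells and less of a transcript per cell cannot be told apart.

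The promoters of the 2 sets of genes are described first, since the choice of the genes did not use them. RefSeq windows (GRCm38.p6, 250 bases before to 50 bases after the start of the gene) were found for 35 of the 40 genes, 15 S-phase and 20 mitotic, and 4 of these genes had 2 windows. Mcm4, Ccne2, Ccna2, Aurkb and Tpx2 had none in the table used. An E2F-type site (TTTCCCGC, TTTCGCGC, TTTGCCGC or TTTGGCGC, either strand) was present for 7 of 15 S-phase genes (46.7%) and 1 of 20 mitotic genes (5.0%), against 2.6% of 27025 genes with a window. A CHR element (TTTGAA or TTCGAA, either strand) was present for 16 of 20 mitotic genes (80.0%) and 4 of 15 S-phase genes (26.7%), against 21.7% of all genes with a window. Among further cell-cycle genes that are not on the list, 14 of 41 replication genes (34.1%) held the E2F-type site and 41 of 55 mitotic genes (74.5%) the CHR element. The E2F-type and CHR letters did not overlap in any window of the 35 genes. These matches describe letters in a window and are not evidence of binding.

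**Figure D1:**
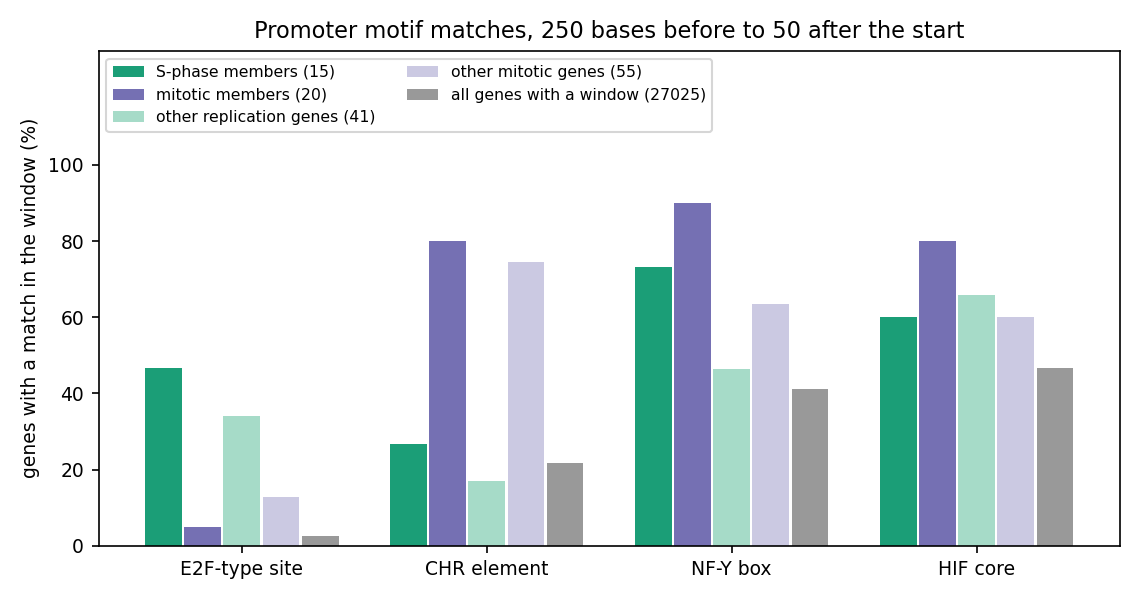
Share of genes with at least 1 match, in percent, for the E2F-type site, the CHR element, the NF-Y box (CCAAT) and the HIF core (ACGTG or GCGTG), in RefSeq promoter windows; bar colours mark the gene set and the legend gives the number of genes. The E2F-type bar was 46.7% for S-phase and 5.0% for mitotic genes, and the CHR bar was 26.7% and 80.0%.

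The following stretches are the 150 bases just before the gene start of 8 genes, 4 of each set, that hold either element there and whose array values are given one by one below. They are shown to make the 2 kinds of element visible, not how common each is in a set, and capitals mark the E2F-type sites and CHR elements. In Mcm6, which encodes a subunit of the replicative helicase, all 3 sites are of the E2F type and the upstream pair overlaps. In Cdc6, an origin-licensing factor, there is 1 E2F-type site. In Mcm2 and in 1 of the 2 windows of E2f2 the marked element is a CHR element, and the other window of E2f2 holds an E2F-type site after the start. In Cdk1 an E2F-type site stands upstream of 2 CHR elements. Of these elements, the stretches of Cdc20, Top2a and Mki67 hold CHR elements only.
Mcm2 (chr6:88898781-88898930, minus strand): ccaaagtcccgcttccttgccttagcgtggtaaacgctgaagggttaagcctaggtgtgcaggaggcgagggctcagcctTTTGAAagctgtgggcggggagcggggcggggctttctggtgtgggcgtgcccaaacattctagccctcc
Mcm6 (chr1:128359706-128359855, minus strand): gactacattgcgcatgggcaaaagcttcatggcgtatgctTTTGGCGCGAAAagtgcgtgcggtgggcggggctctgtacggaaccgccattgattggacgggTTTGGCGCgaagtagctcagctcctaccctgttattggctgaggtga
Cdc6 (chr11:98908001-98908150, plus strand): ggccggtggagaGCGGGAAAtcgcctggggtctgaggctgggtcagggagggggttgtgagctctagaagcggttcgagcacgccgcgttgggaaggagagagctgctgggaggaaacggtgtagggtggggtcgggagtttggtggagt
E2f2 (chr4:136180632-136180781, plus strand): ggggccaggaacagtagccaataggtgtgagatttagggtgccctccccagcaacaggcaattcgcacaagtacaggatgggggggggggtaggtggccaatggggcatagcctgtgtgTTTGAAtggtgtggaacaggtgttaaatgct
Cdk1 (chr10:69352913-69353062, minus strand): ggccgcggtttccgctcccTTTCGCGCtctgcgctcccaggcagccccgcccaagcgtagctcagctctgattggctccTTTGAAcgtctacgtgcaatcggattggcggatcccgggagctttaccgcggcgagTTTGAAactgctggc
Cdc20 (chr4:118437344-118437493, minus strand): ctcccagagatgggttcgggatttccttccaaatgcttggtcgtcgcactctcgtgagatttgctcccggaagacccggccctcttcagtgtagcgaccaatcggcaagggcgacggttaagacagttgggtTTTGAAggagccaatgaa
Top2a (chr11:99024190-99024339, minus strand): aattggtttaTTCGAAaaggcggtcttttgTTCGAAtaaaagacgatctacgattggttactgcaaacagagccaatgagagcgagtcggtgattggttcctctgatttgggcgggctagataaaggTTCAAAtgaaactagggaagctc
Mki67 (chr7:135716380-135716529, minus strand): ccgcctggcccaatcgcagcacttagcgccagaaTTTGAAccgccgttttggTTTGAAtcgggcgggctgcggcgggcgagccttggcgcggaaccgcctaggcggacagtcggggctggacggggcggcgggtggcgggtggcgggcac

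Across the mitotic genes, 15 of 24 CHR matches at different positions lay between 60 bases before and 50 bases after the start, in 15 genes. The S-phase genes Cdc45 (position 11) and E2f2 (position −31) also had a match there. The share of all genes with a match in that stretch was not computed. The NF-Y box was present for 18 of 20 mitotic genes (90.0%) and 11 of 15 S-phase genes (73.3%), against 41.1% of all genes, and for 35 of 55 mitotic (63.6%) and 19 of 41 replication genes (46.3%) that are not on the list. All 16 mitotic genes with a CHR element also held an NF-Y box, as did all 4 S-phase genes with a CHR element. The share of all genes that hold both was not computed. The HIF core, the letters that HIF-1 is known to recognise, was found for 9 of 15 S-phase genes and 16 of 20 mitotic genes (80.0%), against 46.7% of all genes, and for 33 of 55 mitotic and 27 of 41 replication genes (65.9%) that are not on the list.

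**Figure D2:**
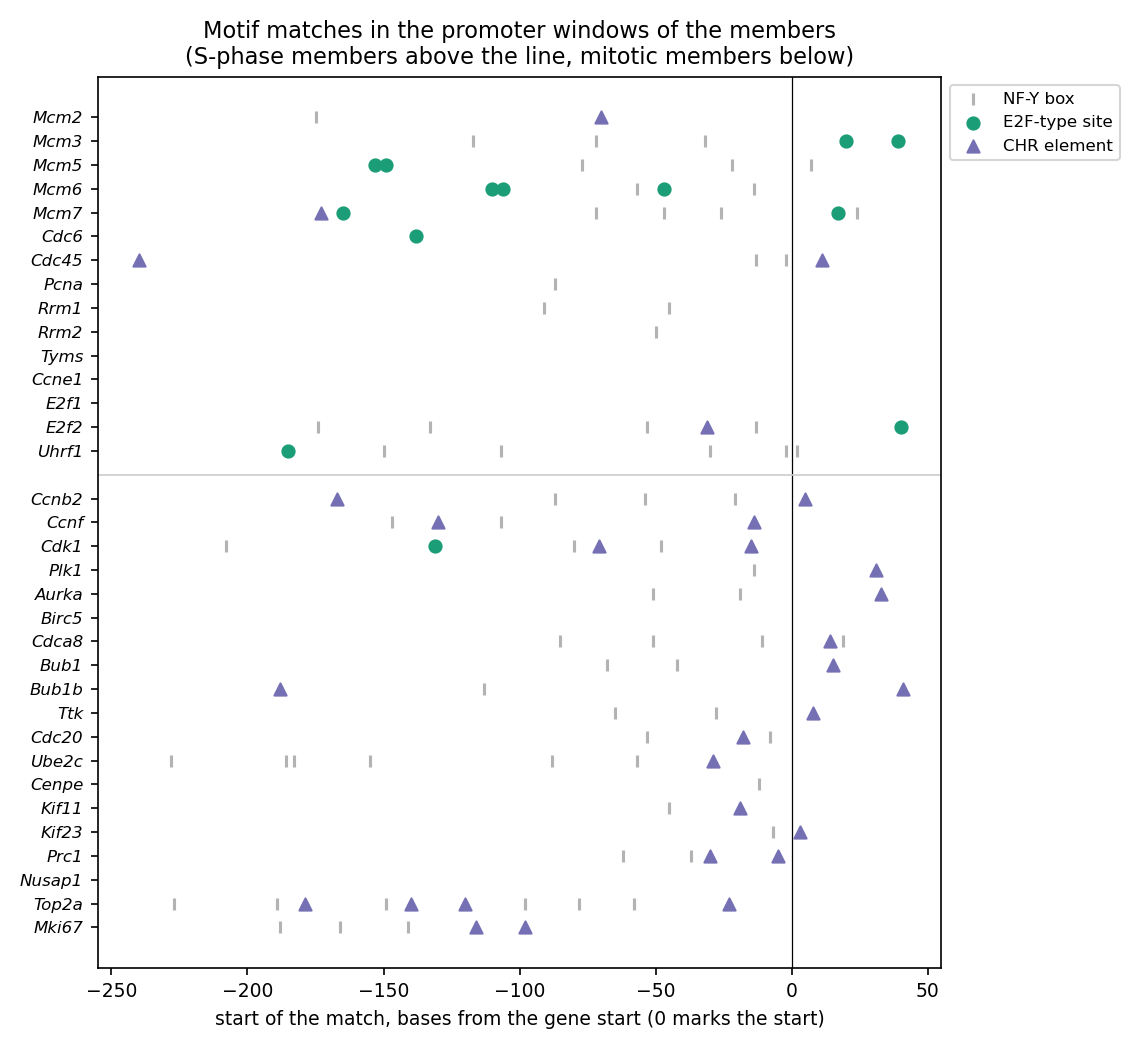
Start of each match on the horizontal axis, in bases from the gene start, for the measured genes with a window (1 line per gene, on which a site in overlapping windows, as in Prc1, is drawn once per window, S-phase genes above the grey line and mitotic genes below). Triangles (CHR elements) lie between 60 bases before and 50 bases after the start in 15 mitotic genes, and also in the S-phase genes Cdc45 and E2f2. Circles (E2F-type sites) lie almost only in S-phase genes.

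Hif1a itself had log2 signals of 10.37 and 10.99 in WT, against 10.58 and 10.64 in Hif1a-/- (array 1 first in each pair). The genotype labels could not be checked by it, as a probe set can lie outside the deleted part. Arrays of the same number resembled each other more (Pearson r across genes 0.995 for number 1 and 0.983 for number 2) than arrays of the same genotype (0.966 and 0.962). The genotypes are also set against each other within each number, as was fixed when the gene list was named. Kit, the receptor used in the sort, read 12.57 and 12.37 in the arrays numbered 1 and 11.51 and 11.32 in those numbered 2 (WT first). Cd34, which was placed among the stem cell genes below, read 13.33 and 12.46 in WT, against 13.30 and 10.92 in Hif1a-/-. The neutrophil marker Ly6g, which the sort should deplete, read 8.04 and 9.81 in WT, against 7.80 and 11.21 in Hif1a-/-. The gene for Sca-1 (Ly6a) was not among the genes named here.

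The replication and mitotic genes were bright on all 4 arrays. Their mean log2 signals ran from 9.17 to 12.90, and 30 of 39 lay in the brightest quintile of genes and the other 9 in the next quintile. The range of a gene between its highest and its lowest array was 0.18 to 1.12 log2 units (median 0.46; median of all genes 0.34). The highest of the 4 arrays was WT array 2 for 20 of 39 genes, against 27.0% of all genes. It was array 1 labelled Hif1a-/- for 15 genes, against 22.3%. The lowest was array 2 labelled Hif1a-/- for 25 genes, against 31.1% of all genes, and WT array 1 for 13, against 23.2%. Array 2 labelled Hif1a-/- was the highest for 2 genes, against 27.1%, and WT array 2 the lowest for 1, against 31.8%. Thus the arrays labelled Hif1a-/- did not stand on 1 side of the WT arrays for most of these genes.

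**Figure D3:**
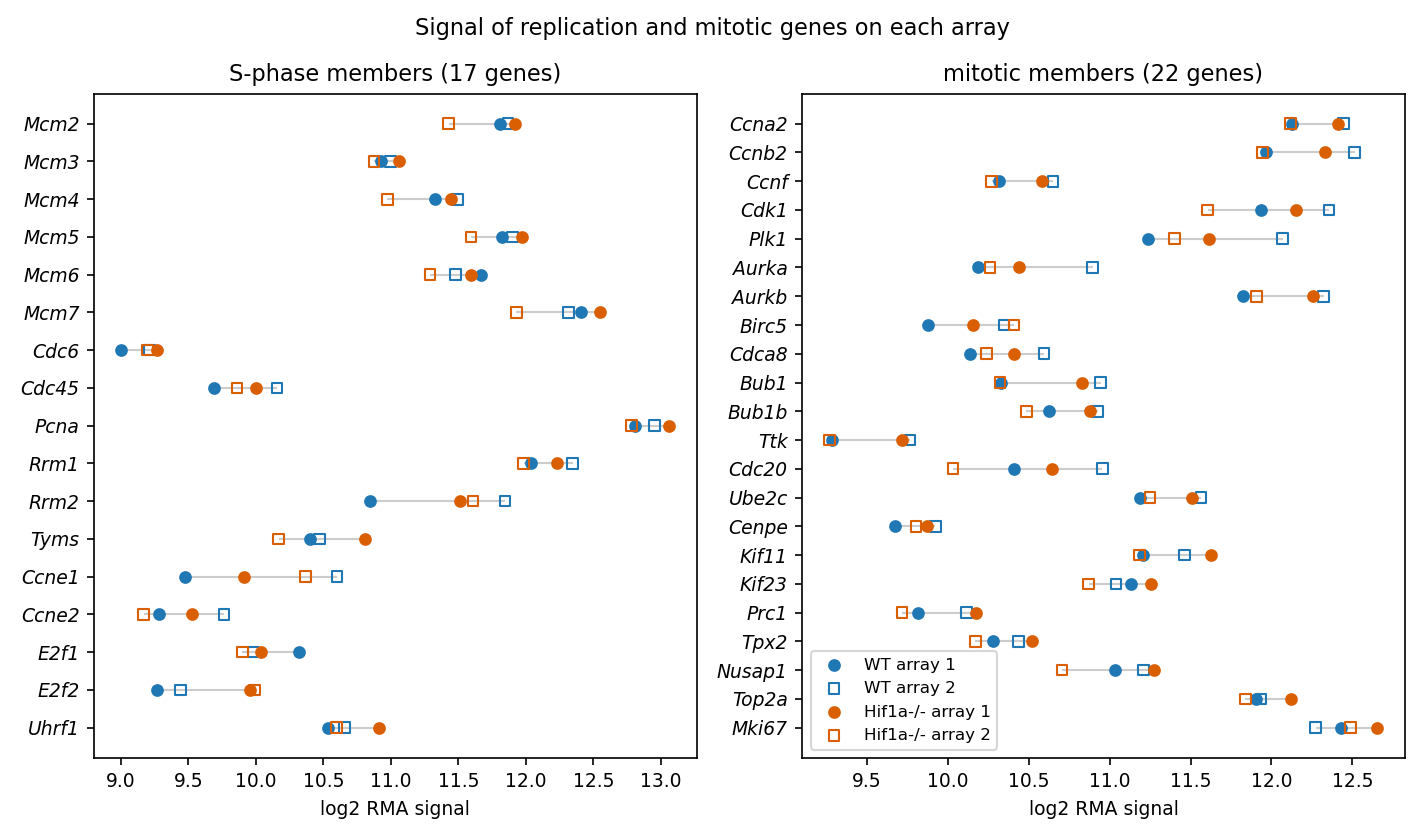
Log2 RMA signal (horizontal axis) of each S-phase gene (left) and mitotic gene (right) on the 4 arrays; blue marks WT, orange marks arrays labelled Hif1a-/-, filled circles are number 1, open squares number 2, and grey lines span the lowest to the highest array. For most mitotic genes WT array 2 lies at the right end and array 2 labelled Hif1a-/- or WT array 1 at the left; E2f2 and Mki67 are the genes with both orange points to the right of both blue points.

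No replication or mitotic gene passed the genotype comparison over both numbers. With limma, 0 of 39 genes, and 0 of all 19938 genes (0%), had an adjusted p under 0.05. At an unadjusted p under 0.05 there was 1 of 39 genes (E2f2), against 0.727% of all genes. The genotypes did not overlap for 2 of 39 genes with Hif1a-/- on the upper side, against 16.1% of all genes, and for 0 with it on the lower side, against 8.33%. The median difference (Hif1a-/- minus WT) was 0.0063 log2 units for the S-phase genes and −0.026 for the mitotic genes, beside 0.0027 for all genes. The mitotic median turned to 0.024 under quantile normalization and 0.044 under cyclic loess, where that of all genes was −0.045 and −0.021. Median centring moved every gene by the same −0.087, so it turned the S-phase median to −0.081 with that of all genes at −0.084. In the mean 16 of 39 genes were higher, against 50.6% of all genes, and 23 lower, against 49.4%. By set these were 9 and 8 of the S-phase genes and 7 and 15 of the mitotic genes. The mitotic counts became 15 higher and 7 lower under quantile normalization and cyclic loess, where 36.0% and 43.5% of all genes were higher. Under the common shift of median centring the counts were 5 and 12 (S-phase) and 2 and 20 (mitotic), with 27.9% of all genes higher. The median standard error of a genotype difference was 0.20 for the 39 genes, and with 2 arrays against 2 an exact permutation test of a single value cannot go below p = 0.333.

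Within the numbers most of these genes differed between the genotypes in opposite directions. In number 1, 37 of 39 genes were higher in the array labelled Hif1a-/-, against 55.3% of all genes, with a median of 0.24 log2 units (1.18-fold) for the S-phase genes and 0.27 (1.21-fold) for the mitotic genes. In number 2, 36 of 39 were lower in the array labelled Hif1a-/-, against 49.0% of all genes, with medians of −0.24 and −0.39, or 1.18-fold and 1.31-fold higher in WT. Both held for 34 of 39 genes, against 28.0% of all genes, by set 14 of 17 S-phase and 20 of 22 mitotic genes. In the brightest quintile of all genes, where 30 of the 39 lie, both held for 46.0%, and in the next quintile, with the other 9, for 35.8%. Higher in both numbers were 3 genes (E2f2, Mki67 and Birc5), against 27.3% of all genes, and lower in both were 2 (E2f1 and Mcm6), against 21.0%. A difference of at least 1.2-fold (0.263 log2 units) was reached in number 1 by 19 genes upwards, against 5.90% of all genes, and by 1 gene downwards, against 3.51%. In number 2 it was reached by 25 genes downwards, against 21.6% of all genes, and by 1 upwards, against 13.7%. Each of these is a difference between 2 single arrays with no replicate, and a fit with genotype, number and their product leaves 0 degrees of freedom among 4 arrays, so the change of direction has no test.

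**Figure D4:**
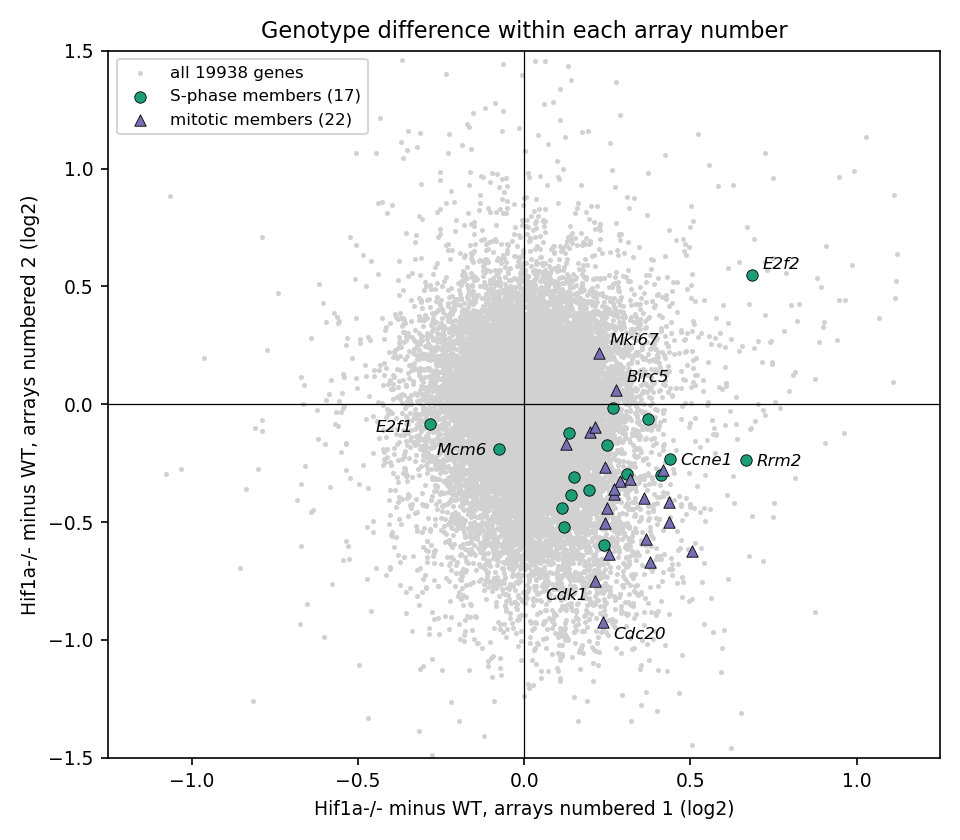
Genotype difference (Hif1a-/- minus WT, log2) of each gene in the arrays numbered 1 (horizontal) and numbered 2 (vertical); grey points are all genes, of which 50 lie outside the axes, green circles S-phase genes and purple triangles mitotic genes. Of the 39 genes, 34 lie in the lower right quadrant (higher in number 1, lower in number 2), while E2f2 and Mki67 lie clearly above the horizontal line and Birc5 just above it.

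The size of the difference in number 2 moved with the brightness of the genes and with the scaling of the arrays. The deposited values had interquartile ranges of 2.78 in WT array 2 and 2.49 in array 2 labelled Hif1a-/-, but 2.61 and 2.60 in number 1. Over the brightest quintile of all genes the median difference was −0.21 in number 2, where 73.2% of genes were lower, and 0.026 in number 1, where 56.3% were higher. Scaling also moved the median of all genes in number 2, from 0.0065 as deposited to −0.10 under quantile normalization, −0.039 under cyclic loess and −0.16 under median centring. Relative to that median, the S-phase genes stood at −0.24 as deposited, at −0.0006 under quantile normalization and at −0.027 under cyclic loess, with 16, 13 and 10 of 17 genes lower in the array labelled Hif1a-/-. The mitotic genes stood at −0.40, −0.16 and −0.16, with 20, 19 and 17 of 22 lower, and median centring left both relative medians as deposited. Of all genes, 49.0% were lower in the array labelled Hif1a-/- as deposited, 66.6% under quantile normalization and 57.3% under cyclic loess. In number 1 the medians relative to all genes kept within 0.20 to 0.22 (S-phase) and 0.25 (mitotic) as deposited and under all 3 scalings, with 15 of 17 and 22 of 22 genes higher each time.

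Among the S-phase genes, the 6 subunits of the MCM2-7 helicase had a median genotype difference of 0.13 in number 1 and of −0.35 in number 2. Mcm2 read 11.81 and 11.87 in WT, against 11.92 and 11.43 in Hif1a-/-. Mcm4 read 11.33 and 11.49 in WT, against 11.45 and 10.97 in Hif1a-/-. Array 2 labelled Hif1a-/- was the lowest array for both, and for the other 4 MCM genes too. Mcm6 read 11.67 and 11.48 in WT, against 11.59 and 11.29 in Hif1a-/-, and was lower in the array labelled Hif1a-/- in both numbers (−0.075 and −0.19).

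Cdc6, which recruits the helicase to origins, read 9.005 and 9.21 in WT, against 9.27 and 9.20 in Hif1a-/-, so that WT array 1 was low and the other 3 arrays lay together. Cdc45, which activates the helicase, differed by 0.31 in number 1 and −0.30 in number 2. Pcna, the sliding clamp of the polymerases, was the brightest of the 39 genes. It read 12.81 and 12.95 in WT, against 13.06 and 12.78 in Hif1a-/-, and its second probe set gave the same differences to 2 decimals (0.25 and −0.17). Uhrf1, which directs maintenance methylation to newly made DNA, read 10.54 and 10.66 in WT, against 10.91 and 10.60 in Hif1a-/-, with array 1 labelled Hif1a-/- standing above the other 3.

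The genes of deoxynucleotide supply (Rrm1 and Rrm2 of ribonucleotide reductase and Tyms, thymidylate synthase) had a median difference of 0.41 in number 1 and −0.30 in number 2. Rrm2, the subunit made in S phase, read 10.84 and 11.85 in WT, against 11.51 and 11.61 in Hif1a-/-. The WT arrays thus stood further apart from each other (1.00) than either stood from the arrays labelled Hif1a-/-. Its genotype difference over both numbers was 0.21 (SE 0.37).

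Genes that drive entry into S phase went different ways. E2f2, an activator E2F factor, read 9.27 and 9.44 in WT, against 9.95 and 9.99 in Hif1a-/-. The group means were 9.35 ± 0.12 and 9.97 ± 0.025 (SD, n = 2 each). The groups did not overlap, and the difference was 0.69 in number 1 and 0.55 in number 2. Over both it was 0.62 log2 units (SE 0.12, 95% interval 0.28 to 0.96, 1.53-fold), with an unadjusted p of 0.00733 and an adjusted p of 0.9998 in limma. Its relative E2f1 read 10.32 and 9.98 in WT, against 10.04 and 9.90 in Hif1a-/-, with a difference of −0.28 in number 1 and −0.082 in number 2 (−0.18 over both, SE 0.17). E2f2 thus had the largest genotype difference of the S-phase genes in number 1, and E2f1 and Mcm6 were the only ones of the 39 that were lower in both numbers.

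The cyclin E genes, whose products activate CDK2 at the start of replication, were both higher in the array labelled Hif1a-/- in number 1 and lower in number 2. Ccne1 read 9.48 and 10.60 in WT, against 9.92 and 10.37 in Hif1a-/-, so both arrays numbered 2 lay above both numbered 1. Ccne2 read 9.29 and 9.76 in WT, against 9.52 and 9.17 in Hif1a-/-, with WT array 2 highest and array 2 labelled Hif1a-/- lowest. The difference between the genotypes was 0.44 and −0.23 for Ccne1 and 0.24 and −0.60 for Ccne2, in numbers 1 and 2.

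Among the mitotic genes, the group of cyclin genes and Cdk1 (Ccna2, Ccnb2, Ccnf and Cdk1) had a median difference of 0.28 in number 1 and −0.48 in number 2. Cdk1 read 11.94 and 12.35 in WT, against 12.15 and 11.61 in Hif1a-/-. In number 2 it was 1.68-fold higher in WT, and in number 1 it was 1.16-fold higher in Hif1a-/-. Over both numbers the difference was −0.27 (SE 0.26), within the spread of the arrays.

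The mitotic kinases Plk1 and Aurka, which act at centrosomes and the spindle poles, had some of the widest spreads. Plk1 read 11.23 and 12.07 in WT, against 11.61 and 11.40 in Hif1a-/-. Aurka read 10.18 and 10.90 in WT, against 10.44 and 10.26 in Hif1a-/-. For both, WT array 2 stood above the other 3 arrays, which lay within 0.38 log2 units for Plk1 and 0.26 for Aurka.

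The chromosomal passenger complex, which corrects faulty attachments of chromosomes to the spindle, is represented by Aurkb, Birc5 (survivin) and Cdca8 (borealin). Aurkb read 11.82 and 12.32 in WT, against 12.26 and 11.91 in Hif1a-/-, a difference of 0.44 in number 1 and −0.42 in number 2. Birc5 read 9.88 and 10.35 in WT, against 10.15 and 10.41 in Hif1a-/-. Unlike Aurkb and Cdca8 (0.27 and −0.36), Birc5 was higher in the array labelled Hif1a-/- in both numbers (0.28 and 0.060), though the groups overlapped.

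The spindle checkpoint, which holds cells in mitosis until all chromosomes are attached, had a median difference of 0.44 in number 1 and −0.50 in number 2 over its 3 genes. Bub1 read 10.33 and 10.94 in WT, against 10.83 and 10.32 in Hif1a-/-. Ttk, the MPS1 kinase, read 9.28 and 9.77 in WT, against 9.72 and 9.27 in Hif1a-/-. In both genes WT array 1 and array 2 labelled Hif1a-/- lay together at the bottom and the other 2 arrays together at the top. Bub1b, which encodes BUBR1, differed by 0.25 and −0.44.

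Cdc20, the activator of the anaphase-promoting complex at the exit from mitosis, had the largest difference of the 39 genes within a number. It read 10.41 and 10.96 in WT, against 10.64 and 10.03 in Hif1a-/-, or 1.90-fold higher in WT in number 2 and 1.18-fold higher in Hif1a-/- in number 1. Over both numbers its difference was −0.34 (SE 0.31, 95% interval −1.20 to 0.52). Ube2c, the ubiquitin-conjugating enzyme of the same complex, differed by 0.32 and −0.32.

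The spindle motors and microtubule factors (Cenpe, Kif11, Kif23, Prc1, Tpx2 and Nusap1) had a median difference of 0.24 in number 1 (0.13 to 0.42) and −0.27 in number 2 (−0.50 to −0.12). All 6 were thus higher in the array labelled Hif1a-/- in number 1 and lower in number 2. Kif11, the motor that pushes spindle poles apart, differed by 0.42 and −0.28, and Nusap1, which bundles spindle microtubules, by 0.24 and −0.50.

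Mki67 and Top2a, whose products coat and untangle mitotic chromosomes, differed between the genotypes by 0.22 and 0.21 in number 1 and by 0.22 and −0.097 in number 2, so that Mki67 kept its direction. Mki67, the gene of the Ki-67 proliferation antigen, read 12.43 and 12.27 in WT, against 12.65 and 12.49 in Hif1a-/-. The group means were 12.35 ± 0.11 and 12.57 ± 0.12 (SD, n = 2 each). The groups did not overlap, and the difference was 0.22 in each number (0.22 over both, SE 0.13, unadjusted p 0.171 in limma). Top2a, the replication and chromosome topoisomerase, read 11.91 and 11.94 in WT, against 12.12 and 11.84 in Hif1a-/-, so that 3 arrays lay together and array 1 labelled Hif1a-/- above them. Its second probe set, far dimmer at 5.04 to 5.61, differed by 0.58 and −0.050.

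No replication or mitotic gene passed between the array numbers. With limma, 0 of 39 genes had an adjusted p under 0.05 between number 2 and number 1, beside 1344 of all 19938 genes (6.74%), 759 higher (3.81%) and 585 lower (2.93%) in number 2. Under median centring this became 512 higher and 155 lower. At an unadjusted p under 0.05 there were 2 of 39 genes, Ccne1 and Birc5, against 19.5% of all genes. Both arrays numbered 2 lay above both numbered 1 for 3 of 39 genes, against 20.4% of all genes, and below them for 4, against 27.2%. Ccne1 was 0.79 log2 units higher in number 2 (SE 0.18, adjusted p = 0.0667 in limma), by 1.12 in WT and 0.45 in Hif1a-/-, and passed in limma under cyclic loess (adjusted p = 0.0464), as 1 of 39 genes against 7.06% of all genes.

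The near-zero medians between the numbers (−0.069 for the S-phase and 0.012 for the mitotic genes) were made of opposite shifts in the genotypes. In WT, 34 of 39 genes were higher in number 2, against 47.4% of all genes, with medians of 0.14 (S-phase) and 0.36 (mitotic). In Hif1a-/-, 35 of 39 were lower in number 2, against 55.4%, with medians of −0.28 and −0.35. These use the same 4 arrays as the differences within the numbers and add no independent support to them. Without WT array 2, 7 of 39 genes passed between the numbers in limma (against 23.4% of all genes), with Ccne1 higher and Cdc20, Cdk1, Mcm2, Mcm4, Mcm7 and Nusap1 lower in number 2. Without array 2 labelled Hif1a-/-, 5 passed (against 23.1%), namely Aurka, Ccne1, Cdc20, Plk1 and Rrm2, all higher in number 2. In each of these fits number 2 is 1 array, which is assumed to vary like the arrays numbered 1, so the calls set that single array against the others. Cdc20 was called in opposite directions.

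Further genes of replication and mitosis that are not on the list showed the same pair of directions. Of 53 other replication genes 51 were measured, and 48 of these were higher in the array labelled Hif1a-/- in number 1 (median 0.18) and 48 lower in number 2 (median −0.38). Of 71 other mitotic genes 69 were measured, of which 68 were higher in number 1 (median 0.28) and 63 lower in number 2 (median −0.41). Both directions held for 45 of 51 and 62 of 69 genes, against 28.0% of all genes. In the brightest quintile of all genes both held for 46.0% and in the next for 35.8%, and these lists had median mean signals of 10.21 and 9.95. They were read on the same 4 arrays and add no independent support, and their medians under other scalings are not given here. No gene of these lists passed in limma over both numbers (0 at an unadjusted p under 0.05). Cdt1, which loads the helicase at origins, read 11.30 and 11.43 in WT, against 11.34 and 10.73 in Hif1a-/-. An exception was Cdc25b, a phosphatase that activates CDK1, which read 9.77 and 9.73 in WT, against 9.99 and 10.44 in Hif1a-/-, with no overlap between the groups (0.47 over both, SE 0.19, unadjusted p 0.069 in limma).

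The known regulators of these genes are given for comparison. Of 18 E2F and pocket protein genes beside E2f1 and E2f2, 16 were higher in number 1 (median 0.19) and 15 lower in number 2 (median −0.15). E2f6, a repressor E2F, read 9.84 and 9.92 in WT, against 9.92 and 9.01 in Hif1a-/-, with array 2 labelled Hif1a-/- alone at the bottom. Of 18 MYC and growth genes 11 were higher in number 1 (median 0.053) and 16 lower in number 2 (median −0.30). Of all genes 55.3% were higher in number 1 and 49.0% lower in number 2, and of the brightest quintile 56.3% and 73.2%. The median mean signals of the 2 lists were 10.24 and 10.98.

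**Figure D5:**
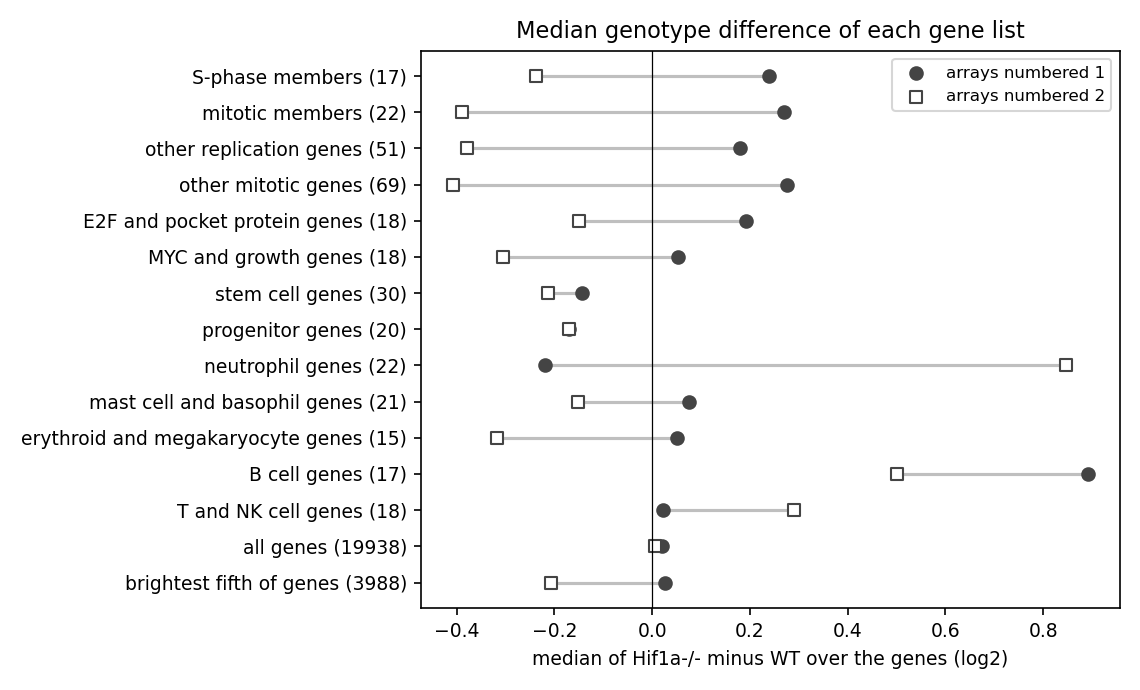
Median genotype difference (Hif1a-/- minus WT, log2, horizontal axis) of each gene list in the arrays numbered 1 (filled circles) and numbered 2 (open squares), with the number of measured genes in brackets. The replication and mitotic lists lie between 0.18 and 0.28 in number 1 and between −0.41 and −0.24 in number 2; the brightest quintile of genes lies at 0.026 and −0.21.

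Markers of other cells also differed between the arrays. The summed linear signal of 22 measured neutrophil genes was 46863 and 87612 in WT, against 38731 and 117894 in Hif1a-/-. That of 30 stem cell genes was 72938 and 49547 in WT and 66888 and 37706 in Hif1a-/-. In number 2, where the replication and mitotic genes were lower in the array labelled Hif1a-/-, 17 of 22 neutrophil genes were higher there (median 0.85) and 24 of 30 stem cell genes lower (median −0.21). In number 1, where they were higher, 19 of 22 neutrophil genes were lower (median −0.22), 24 of 30 stem cell genes lower (median −0.14) and 16 of 17 B cell genes higher (median 0.89). The summed signal of the B cell genes was 15678 and 14087 in WT and 31790 and 20039 in Hif1a-/-, and 14 of 17 were also higher in number 2. Ighm, the immunoglobulin mu heavy chain gene, is in the progenitor list, not the B cell list, and went the other way. It read 11.50 and 11.53 in WT, against 9.99 and 10.21 in Hif1a-/-, on the brightest of its 3 probe sets. For 20 progenitor genes the sums were 69476 and 77885 in WT and 61208 and 67806 in Hif1a-/-, and for 21 mast cell and basophil genes 11405, 29553, 12657 and 29826 in the same order. Between the numbers 14 of 22 neutrophil genes passed in limma, all higher in number 2, against 6.74% of all genes. Likewise 12 of 21 mast cell and basophil genes passed, all higher, 10 of 30 stem cell genes, all lower, and 9 of 20 progenitor genes, 4 higher and 5 lower. The lists overlap, as the progenitor list shares Mpo, Elane, Prtn3 and Ctsg with the neutrophil list and Rag1 and Rag2 with the B cell list. The mast cell list shares Gata1 with the erythroid list and Gata2 with the stem cell list, which shares Thy1 with the T and NK cell list. Erythroid and megakaryocyte genes (15 measured) summed to 15121, 19755, 15905 and 14250, and T and NK cell genes (18 measured) to 11217, 12921, 10653 and 15397. An array signal has no true 0, so absence of a marker cannot be read from it, and the part of these cells in the differences of the replication and mitotic genes was not tested.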

How the data were processed

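Total RNA of 4 samples was labelled by an Affymetrix whole-transcript assay, per the labels' protocols. Per the submitters' processing notes, the authors used Affymetrix Expression Console 1.1 and RMA, and the range of the deposited values (3.08 to 14.88) is that of log2 signals. RMA usually includes a quantile step, which removes a change shared by all genes. The array medians (8.19 to 8.35) and interquartile ranges (2.49 to 2.78) nevertheless differ. Whether replicates came from separate mice beyond the label "biological" is not stated, and p-values measure the spread between these arrays.

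Of 35556 probe sets, 21789 had 1 symbol, 1621 several and 12146 none in the platform annotation (21698 matched RefSeq by gene ID). The brightest probe set was kept per gene, which gave 19938 genes with no filter. limma 3.58.1 (R 4.3.3; lmFit, eBayes) was fitted to genotype and, separately, to array number; p-values are two-sided and Benjamini-Hochberg adjusted over all genes (threshold 0.05). The fits were also run on simulated data in which all arrays varied independently. Same-numbered arrays deviated together here (r = 0.67 across genes), so that run does not bear on the fits of these arrays. Members and lists were chosen with earlier results of these data known. Named genes were, in each set, up to 3 per direction with the smallest genotype p, the 3 largest differences within each number, and Mki67, Pcna, Mcm2, Top2a, Ccnb1, Cdk1 and E2f2, with up to 2 per direction from other lists; Cdc45, Bub1b, Ube2c, Cdca8, Kif11 and Nusap1 were named later to complete their groups, and the genes that passed between numbers with an array left out were named after their values were seen. Alternatives were quantile normalization, cyclic loess, median centring, a filter on the dimmest 40% of genes, the mean of a gene's probe sets, eBayes with trend and robust, the replicate number as a block (for numbers, genotype as a term) and each array left out. Promoter sequences are from RefSeq (GRCm38.p6).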

Additional observations from a re-analysis of the deposited data

Results flagged for a closer look

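For 4 gene lists, every pair of arrays numbered 1 and every pair numbered 2 gave median genotype differences (Hif1a-/- minus WT) of opposite sign, with 1 pair in each number, so the difference between the numbers was not tested. The median in number 2 minus that in number 1 was −0.48 log2 units for the S-phase genes, −0.66 for the mitotic genes, −0.56 for the other replication genes and −0.68 for the other mitotic genes. Opposite signs were not particular to these lists. Medians in numbers 1 and 2 were 0.19 and −0.15 (E2F and pocket protein genes) and 0.053 and −0.30 (MYC and growth genes). They were 0.076 and −0.15 for mast cell and basophil genes and 0.052 and −0.32 for erythroid and megakaryocyte genes. Neutrophil genes (−0.22 and 0.85) and sort and lineage genes (−0.021 and 0.24) turned the other way.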

How the results depend on the processing

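The number of arrays limits these results: each value within a number rests on 2 arrays. The count of 0 genes between the genotypes held under all 11 alternatives, with 39 to 622 genes at an unadjusted p under 0.05 in limma. With the replicate number as a block it was also 0, with 478 genes at an unadjusted p under 0.05. Same-numbered arrays deviated together from their genotype means (r = 0.67 across genes, 0.37 across the 39 genes), but with 2 pairs the numbers are not shown to pair the arrays. The 1344 genes called between the numbers became 667 under median centring and 319 to 4661 with an array left out, lowest without WT array 1 and highest without WT array 2, where 1 array is left in number 2 (458 without array 1 and 4602 without array 2 labelled Hif1a-/-). With an array left out, the median genotype difference over both numbers ran from −0.21 to 0.10 (S-phase) and −0.22 to 0.15 (mitotic), below 0 without either array numbered 1 and above 0 without either array numbered 2. Between the numbers it ran from −0.19 to 0.056 and −0.19 to 0.21. Within a number no array can be left out. Median centring moved every genotype difference over both numbers by the same −0.087 log2 units, which by construction turned the signs of Top2a (−0.029), Aurkb (−0.077) and Pcna (−0.048). Signs turned under quantile normalization for Bub1 (0.021) and Ttk (0.0014) and under cyclic loess for Bub1 (0.028) and Ttk (0.01). With an array left out, signs also turned for Mcm2 (−0.41 to 0.082), Mcm4 (−0.44 to 0.037), Mcm6 (−0.28 to 0.0185), Rrm2 (−0.29 to 0.72), Ccne1 (−0.46 to 0.66), Ccne2 (−0.42 to 0.061), Pcna (−0.10 to 0.18), Birc5 (−0.0665 to 0.40), Top2a (−0.083 to 0.20), Cdk1 (−0.54 to 0.0041), Aurka (−0.55 to 0.17), Aurkb (−0.24 to 0.26), Bub1 (−0.37 to 0.25), Ttk (−0.27 to 0.21) and Plk1 (−0.56 to 0.27). Under all 11 alternatives E2f2 stayed between 0.53 and 0.70 and Mki67 between 0.13 and 0.30. The cause of the turns other than under median centring was not tested.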
